A study of Saccharomyces cerevisiae with 12 samples.

Results

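The difference between 2 budding yeast strains was measured after 48 h in 400 mM KCl, in 6 of the 12 libraries of the series: 3 from the strain named crz1 and 3 from the strain named crz1cnb1. Each crz1cnb1 library was compared with the crz1 library of the same replicate number. The cells were haploid Saccharomyces cerevisiae in the BY4741 background, and poly(A) RNA was sequenced. Both strains were MATa and carried his3delta1, ura3delta0, leu2delta0 and lys2delta0, a deletion of CRZ1 replaced by LEU2 (crz1delta::LEU2), and a HYG-TEFp-GFP(Y66F) cassette on chromosome VI, in which the TEF promoter drives GFP. The crz1cnb1 strain differed from crz1 by the further allele cnb1delta::KanMx, so no library of either group had the transcription factor Crz1. Cultures in KCl were kept in logarithmic growth by dilution at 12 h intervals, in synthetic medium with ammonium chloride as the nitrogen source. The other 6 libraries, 3 of each strain taken untreated at 0 h, were used to set the strain difference in KCl beside that before KCl. No untreated culture of 48 h was analysed here, so KCl and time in culture cannot be told apart in any contrast with 0 h. The labels speak of triplicate experiments without saying whether the cultures were separate, and each p-value here reflects the spread among these libraries alone.

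Calcineurin is a phosphatase activated by calcium and calmodulin. In yeast it is built from a catalytic subunit, encoded by CNA1 or CMP2, and the regulatory subunit Cnb1, without which it is inactive. Its best known substrate is Crz1, which it sends to the nucleus to activate genes of ion transport and cell wall synthesis. The study's title asks for changes in expression that need calcineurin but not Crz1, and a comparison of strains that both lack CRZ1 removes the Crz1 branch from the question.

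The deposited counts summed to between 21305485 and 21599279 per library. A principal component analysis of the 6 KCl libraries put 60.2% of their variance on component 1, which separated the replicate numbers, and 10.4% on component 3, which separated the strains. On component 1 the libraries of replicate 2 lay at 25.7 and 24.8 and those of replicate 3 at -21.9 and -19.7. The libraries of replicate 2 stood apart in both strains. The main tests were made within replicate numbers, as the comparison was defined, and the sensitivity to each pair is given below. The summed level of 7 markers of quiescent or stationary cells was 235.1, 136.3 and 295.1 CPM (counts scaled to library size) in crz1 replicates 1 to 3 and 230.9, 135.5 and 255.9 CPM in crz1cnb1, all markers being detected. Thus the low value of replicate 2 was shared by the strains. The summed level of 7 a-cell markers was 2118 to 3031 CPM in crz1 and 2276 to 2957 CPM in crz1cnb1, while 4 alpha-cell markers summed to 22.13 to 34.65 CPM in all 6 libraries. The 7 markers of sporulating diploids summed to 38.97 to 48.3 CPM. The haploid a-cell label was met in every KCl library.

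CNB1 (YKL190W, R64 chromosome XI, 82947 to 83550, plus strand) had 3139, 3104 and 2416 counts in the KCl libraries of crz1 and 68, 31 and 32 in those of crz1cnb1. The groups lay far apart, and the fitted log2 difference, crz1cnb1 minus crz1 as in all that follow, was -6.01 ± 0.18 (SE, 3 pairs; edgeR, adjusted p = 8.14e-08). CRZ1 had 8 to 19 counts in crz1 and 3 to 9 in crz1cnb1, too few to test. URA3 and LYS2 had 0 counts in every library, while MET17, which the listed genotypes do not name, had 8255 to 12554 counts in the KCl libraries. The catalytic subunit genes did not pass the test. CMP2 had a log2 difference of 0.10 ± 0.07 (adjusted p = 0.901), and CNA1 one of 0.01 ± 0.08 (adjusted p = 0.995), whose sign turned when library totals without a scaling factor were used. Neither did DPH2 and HYM1, the neighbours of CNB1, nor SAM50 and KTR5, the neighbours of CRZ1.

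Loss of CNB1 in KCl-grown cells without CRZ1 went with a small set of changes. Of 6309 features tested, 26 passed an adjusted p of 0.05, or 0.412%. Of these, 14 were higher in crz1cnb1 (0.222% of the features tested) and 12 were lower (0.19%), CNB1 among them. The higher genes included 5 of the phosphate regulon, genes of hexose and zinc uptake, and ADR1, which encodes an activator of genes for growth on carbon sources other than glucose. The lower genes included DAN1, PRM6, TSA2 and HXK1. The change was at least 2-fold in 11 of the 26 and at least 1.5-fold in 20, and the smallest was 1.29-fold. All 26 had the same sign in 3 of 3 pairs, as did 32.2% of all features tested. The 3 libraries of crz1 and the 3 of crz1cnb1 did not overlap in level for 12 of the 26, against 2.82% of all features. These 12 were PHO84, SPL2, PHO89, PHO12, GRE1 and VTC3 among the higher genes and CNB1, RDN5-1, DAN1, COS12, PRM6 and BNA1 among the lower. For 13 of the 26 the libraries of replicate 2 were the lowest of both strains, as for HXT5, PNS1, HXK1 and STF2. The share over all features was not counted, so this is not read as a trait particular to the called ones. A fit that ignored the replicate number, and so counted the differences between numbers as error, called 3 features (0.0476%): CNB1, RDN5-1 and SPL2. When 1 KCl library was left out, which also removes its partner from the paired contrast, 9 to 12 features were called. The 7 called in all 6 such fits were CNB1, RDN5-1, ADR1, PHO84, ZRT1, YNR034W-A and HXT5, while PHO89, STF2, GRE1, TPO2, TSA2, COS12, TIP1, IMD2, VTC3, COS1, YDR134C and BNA1 were called in none. Of the others, HXT7 and SPL2 lost the call without replicate 3 of either strain (adjusted p = 0.448 and 0.0574). PNS1 and PRM6 kept it only without replicate 1, DAN1 only without replicate 2, and PHO12 and HXK1 only without replicate 3.

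**Figure D1:**
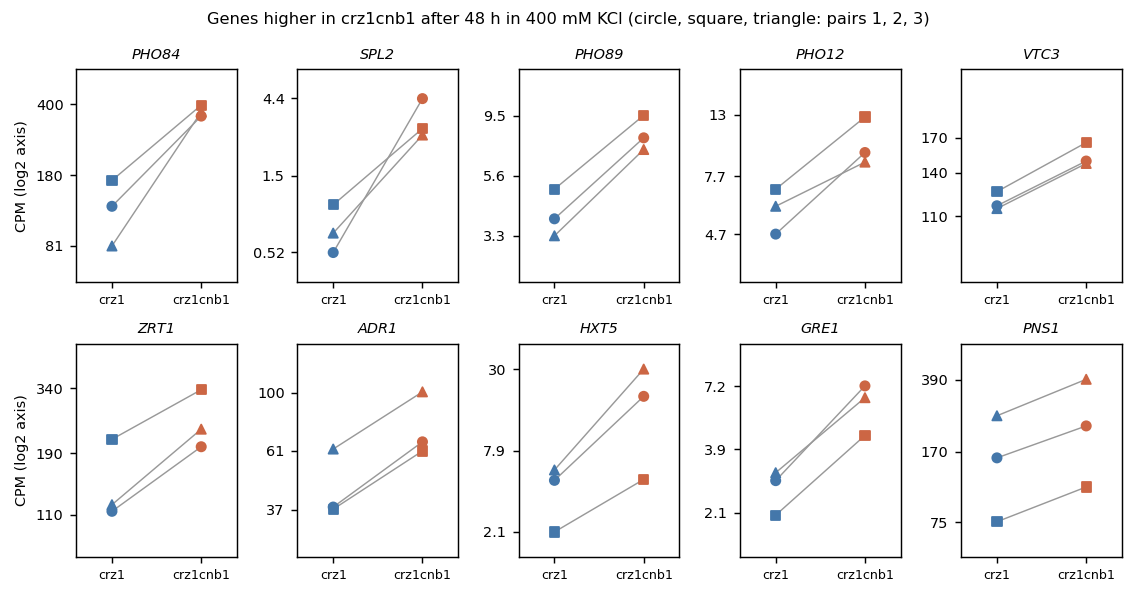
Level in CPM (log2 axes, each panel with its own range) of 10 genes called higher in crz1cnb1 after 48 h in 400 mM KCl, in each of the 6 libraries, with a line joining the libraries of each replicate number. Every line rises, while for HXT5 the crz1cnb1 library of replicate 2 (4.94 CPM) lay within the range of crz1.

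Phosphate uptake and storage genes formed the main group among the higher genes. When phosphate is scarce, the transcription factor Pho4 enters the nucleus, binds the sequence CACGTG upstream of its target genes and induces phosphate transporters, secreted phosphatases and enzymes of polyphosphate synthesis. With phosphate in supply, the kinase Pho85 and its cyclin Pho80 keep Pho4 phosphorylated and out of the nucleus. Of 27 phosphate regulon genes tested, 5 were called higher in crz1cnb1 and 0 lower. The log2 difference was above 0 in 21 of the 27 with a median of 0.108, against 51.6% of all features and a median of 0.0039. A shift of this size was not particular to the phosphate list. The cell wall synthesis and remodelling list had 35 of 38 above 0 with a median of 0.119. The phosphate list had been chosen with earlier results of these data known.

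PHO84 (YML123C) encodes the high-affinity phosphate transporter of the plasma membrane. It stood at 126, 169 and 80.6 CPM in crz1 replicates 1 to 3 and at 351, 397 and 367 CPM in crz1cnb1. All 3 crz1cnb1 libraries lay above all 3 of crz1, and the log2 difference was 1.62 ± 0.14 (95% interval 1.30 to 1.95, adjusted p = 6.31e-04). With the 6 KCl libraries fitted alone it kept that size with an adjusted p of 0.172. An antisense RNA, YNCM0001W, overlaps PHO84 on the opposite strand, and without a stated strand setting reads of the pair cannot be told apart. SPL2 (YHR136C) encodes a small protein that lowers low-affinity phosphate uptake. Its level was low in both strains, 0.519, 1.004 and 0.679 CPM (13, 23 and 14 counts) in crz1 and 4.37, 2.89 and 2.64 CPM (104, 66 and 52 counts) in crz1cnb1. The groups did not overlap, and the log2 difference was 2.17 ± 0.27 (adjusted p = 0.00689), the highest of all features tested.

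PHO89 (YBR296C), the sodium-coupled phosphate transporter, stood at 3.83, 4.97 and 3.30 CPM in crz1 and at 7.82, 9.54 and 7.05 CPM in crz1cnb1. Each pair moved by a similar amount (1.01, 0.93 and 1.08 on the log2 scale), with a fitted difference of 1.01 ± 0.13 (adjusted p = 0.00765). PHO12 (YHR215W), one of the secreted acid phosphatases, rose from 4.71, 6.89 and 5.96 CPM to 9.42, 12.7 and 8.68 CPM, a log2 difference of 0.81 ± 0.12 (adjusted p = 0.0145). Since 87.2% of its 50-base words occur elsewhere in the genome, its reads cannot be fully parted from those of its near copy PHO11. PHO11 itself had a log2 difference of 0.39 ± 0.14 (adjusted p = 0.553). VTC3 (YPL019C), a subunit of the vacuolar complex that makes polyphosphate, showed the smallest and most even change of the 5, from 117, 126 and 115 CPM to 150, 166 and 148 CPM. Its log2 difference was 0.37 ± 0.06 (adjusted p = 0.0244), with 0.36, 0.39 and 0.36 in the 3 pairs. Without any 1 pair, PHO89 and VTC3 were no longer called, with adjusted p of 0.0751 to 0.134 for PHO89 and 0.185 to 0.399 for VTC3.

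The other 22 phosphate genes did not pass the test. PHO5, the main secreted acid phosphatase, had a log2 difference of 0.14 ± 0.10 (adjusted p = 0.904) and VTC4, the catalytic subunit of the polyphosphate polymerase, one of 0.19 ± 0.07 (adjusted p = 0.519). The regulators PHO4, PHO2, PHO80, PHO81 and PHO85 lay between -0.09 and 0.11. The low-affinity transporters PHO87, PHO90 and PHO91 lay between -0.06 and 0.18. GIT1, a transporter of glycerophosphoinositol, was lowest of the list at -0.47 ± 0.13 (adjusted p = 0.249).

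**Figure D2:**
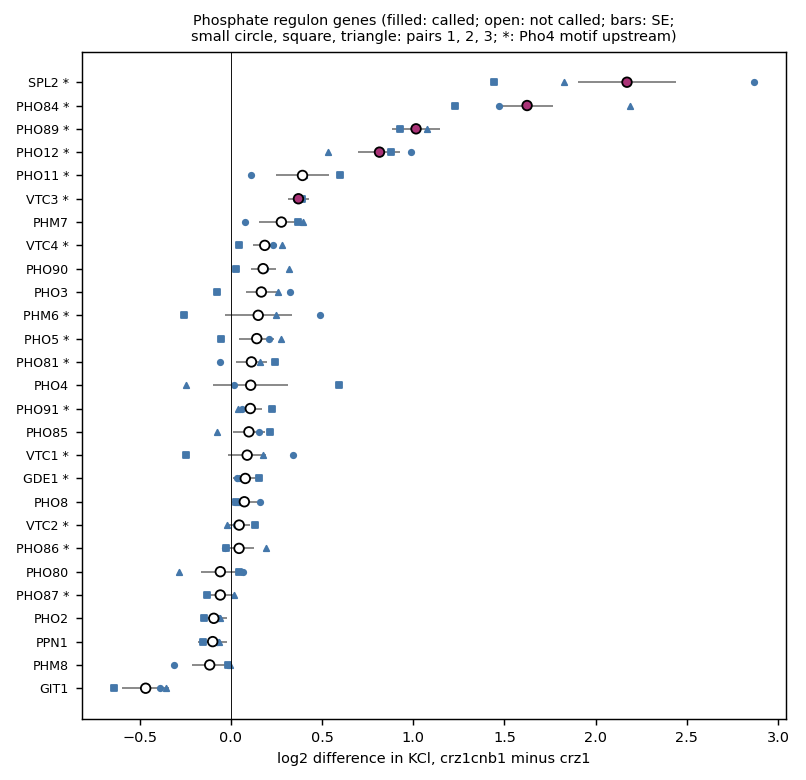
Log2 difference in KCl, crz1cnb1 minus crz1, of the 27 tested phosphate regulon genes. Large points are fitted values with SE bars, filled where called, small symbols are the 3 pairs, and an asterisk marks genes with CACGTG in the 500 bases upstream of the start codon. SPL2, PHO84, PHO89, PHO12 and VTC3 are called, and GIT1 lies lowest at -0.47.

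The upstream sequences of the phosphate genes were read from the R64 reference genome, whose gene coordinates match the identifiers of the count table. CACGTG, which reads the same on both strands, occurred within 500 bases upstream of the start codon in 5 of the 13 protein-coding higher genes, and these were the 5 phosphate genes. It occurred in 2 of the 11 lower genes that could be read, CNB1 and HXK1, and in 6.28% of 5716 promoters. Of the 27 phosphate genes 16 had it. Among those 16 the log2 difference was above 0 in 15 with a median of 0.145, and among the 11 without it in 6 with a median of 0.0732. The 16 include all 5 called genes, so this split reuses the values behind the calls and is not separate evidence. A match is a description of these letters and does not show binding. The stretches that hold the motif are shown for the 5 called genes, 5′ to 3′ on the coding strand with the motif in capitals and 20 further bases on each side where the start codon allows. SPL2 has 4 copies, of which the 3 nearest the start codon are shown.
PHO84, chrXIII:26189-26256, minus strand: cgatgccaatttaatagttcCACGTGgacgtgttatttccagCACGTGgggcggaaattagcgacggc
SPL2, chrVIII:375106-375267, minus strand: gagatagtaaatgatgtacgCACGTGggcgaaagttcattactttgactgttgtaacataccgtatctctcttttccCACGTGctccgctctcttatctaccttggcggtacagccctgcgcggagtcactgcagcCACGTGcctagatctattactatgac
PHO89, chrII:798820-798865, minus strand: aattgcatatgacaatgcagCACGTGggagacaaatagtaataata
PHO12, chrVIII:551796-551841, plus strand: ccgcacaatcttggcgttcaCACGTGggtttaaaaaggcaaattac
VTC3, chrXVI:517304-517383, minus strand: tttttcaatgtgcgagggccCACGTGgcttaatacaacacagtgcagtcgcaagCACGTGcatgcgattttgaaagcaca
The first motif base lay at position -436 and -414 of PHO84, -147, -90 and -31 of the copies shown for SPL2, -323 of PHO89, -283 of PHO12 and -345 and -311 of VTC3, counted back from the start codon.

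Zinc uptake was represented by 1 called gene. ZRT1 (YGL255W) encodes the high-affinity zinc transporter and is induced by the transcription factor Zap1 when zinc is low. It stood at 113, 215 and 120 CPM in crz1 and at 202, 335 and 236 CPM in crz1cnb1. Each crz1cnb1 library was above its partner, although the ranges overlapped because replicate 2 was high in both strains, and the log2 difference was 0.81 ± 0.07 (95% interval 0.65 to 0.97, adjusted p = 6.31e-04). Of the 13 tested genes of the zinc regulon it was the only one called, and the median of the list was 0.00665. In that list 7 genes had a difference above 0 and 6 one below, the lowest at -0.258. PNS1 (YOR161C), a membrane protein related to choline transporters, rose by 0.57 ± 0.07 (adjusted p = 0.00612), from 158, 75.4 and 257 CPM to 229, 113 and 392 CPM. ACCTTNAAG, a shortened form of the Zap1 motif searched on both strands, was found upstream of ZRT1 and PNS1 among the 13 higher genes. It occurred in 0 of the 11 lower genes and in 1.92% of all promoters. The ZRT1 copy overlaps itself on the opposite strand, which makes 2 matches of 1 run. PNS1 has 1 match without that overlap, so its run is shorter than that of ZRT1.
ZRT1, chrVII:20754-20804, plus strand: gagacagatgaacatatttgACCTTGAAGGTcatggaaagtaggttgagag
PNS1, chrXV:638597-638645, minus strand: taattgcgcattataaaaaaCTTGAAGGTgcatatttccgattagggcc

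Of 21 hexose transport and glucose sensing genes tested, HXT5 and HXT7 were called higher and 0 lower. HXT5 (YHR096C), a hexose transporter that yeast makes when it grows slowly, stood at 4.87, 2.09 and 5.77 CPM in crz1 and at 19.2, 4.94 and 30.0 CPM in crz1cnb1. Its groups overlapped through replicate 2, which was low in both strains, and the log2 difference was 1.97 ± 0.19 (adjusted p = 0.00115). HXT7 (YDR342C), a high-affinity hexose transporter, had 0.479, 0.393 and 1.65 CPM in crz1 and 1.14, 1.18 and 6.75 CPM in crz1cnb1, a log2 difference of 1.77 ± 0.22 (adjusted p = 0.00731). It is nearly identical to HXT6, with 95.1% of its 50-base words found elsewhere, so these few reads hold a part of the pair's signal. HXT6 itself was tested and not called. In the list 14 genes had a difference above 0 and 7 one below, the lowest at -0.531, and the median was 0.0963. HXT4 and HXT2 had log2 differences of 0.51 ± 0.12 (adjusted p = 0.154) and 0.47 ± 0.12 (adjusted p = 0.186).

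ADR1 (YDR216W), the activator of genes for ethanol and fatty acid use, belonged to none of the lists. It stood at 37.8, 37.1 and 62.0 CPM in crz1 and at 65.9, 61.0 and 101 CPM in crz1cnb1. The 3 pairs differed by 0.80, 0.71 and 0.70, and the fitted log2 difference was 0.74 ± 0.06 (adjusted p = 6.31e-04). HXK1 (YFR053C), a hexokinase used on carbon sources other than glucose, was the 1 gene called of 33 in the general stress list. It was lower, with 456, 286 and 639 CPM in crz1 and 306, 150 and 489 CPM in crz1cnb1. It fell by 0.63 ± 0.10 on the log2 scale (adjusted p = 0.0205). No gene of glycolysis and fermentation (24 tested), of the tricarboxylic acid cycle and gluconeogenesis (27 tested) or of the respiratory chain (35 tested) was called, where 0.412% of all features were, so a list of that size would hold a call only rarely.

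Of the remaining higher features, GRE1, TPO2 and TIP1 belonged to the osmotic stress, drug efflux and cell wall lists, and YDR134C to none. GRE1 (YPL223C), which encodes a hydrophilin made under osmotic stress, rose from 2.87, 2.05 and 3.10 CPM to 7.23, 4.46 and 6.44 CPM, by 1.18 ± 0.17 on the log2 scale (adjusted p = 0.0172). It was the 1 gene called of 24 in the osmotic stress and glycerol list. STL1, the glycerol importer of that list, had a log2 difference of 0.72 ± 0.19 (adjusted p = 0.207), and GCY1, a glycerol dehydrogenase, one of -0.28 ± 0.07 (adjusted p = 0.207). TPO2 (YGR138C), a polyamine exporter, differed by 0.96 ± 0.14 (adjusted p = 0.019). It shares 41.3% of its 50-base words with other loci. TIP1, a cell wall mannoprotein, differed by 0.43 ± 0.07 (adjusted p = 0.0205).

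TIP1 was the 1 gene called of 38 in the cell wall synthesis and remodelling list, in which 35 differences were above 0 and the median was 0.119. Library totals without a scaling factor left 29 of the 38 above 0. The medians of that list in the 3 pairs were 0.052, 0.12 and 0.179. CWP1 and YPS3, also of the wall, had log2 differences of 0.41 ± 0.08 (adjusted p = 0.0687) and 0.51 ± 0.10 (adjusted p = 0.0842). CRH1, a wall crosslinking enzyme known as a Crz1 target, had 0.26 ± 0.06 (adjusted p = 0.163). YDR134C, a feature that the reference lists as the pseudogene CCW22, was called higher at 0.43 ± 0.07 (adjusted p = 0.0436).

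**Figure D3:**
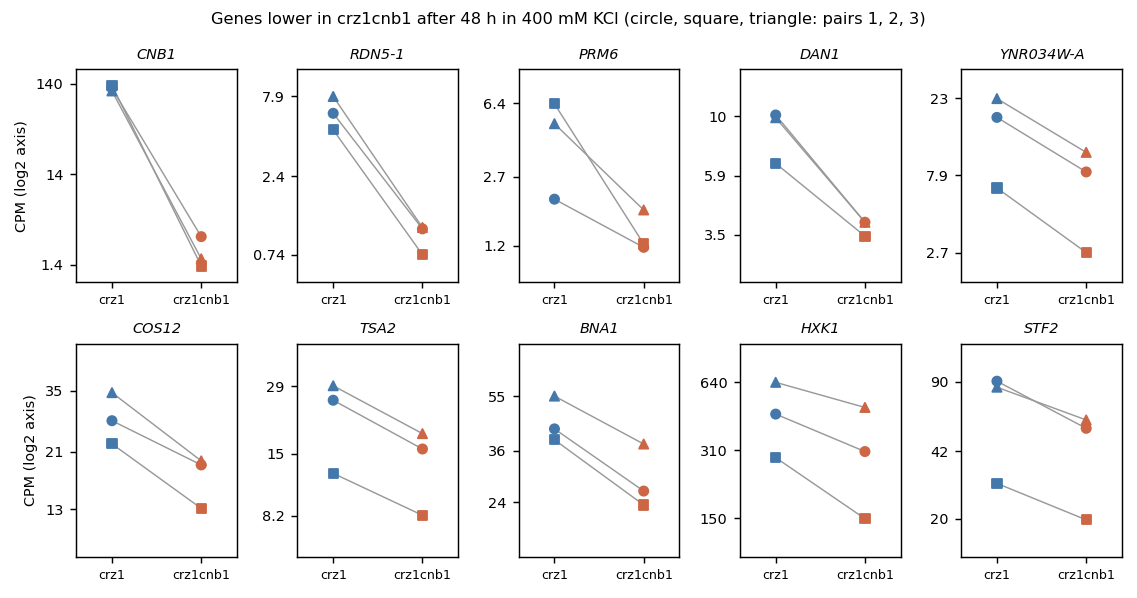
Level in CPM (log2 axes, each panel with its own range) of 10 features called lower in crz1cnb1 after 48 h in 400 mM KCl, in each of the 6 libraries, with a line joining the libraries of each replicate number. CNB1 falls from between 117 and 135 CPM to between 1.36 and 2.86 CPM, and every other line falls too.

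Among the lower features, the change next in size to CNB1 was that of RDN5-1, a copy of the gene for 5S ribosomal RNA, which is not normally polyadenylated. It had 154, 110 and 163 counts in crz1 and 26, 17 and 22 in crz1cnb1, or 6.14, 4.80 and 7.90 CPM against 1.09, 0.744 and 1.12 CPM. The groups did not overlap, and the log2 difference was -2.66 ± 0.20 (adjusted p = 3.78e-04). The gene has near-identical copies whose features held 0 counts in all libraries, so the value cannot be assigned to 1 copy. YNR034W-A, named EGO4 in the reference table, fell by 1.13 ± 0.11 (adjusted p = 8.83e-04), from 17.6, 6.63 and 22.9 CPM to 8.28, 2.71 and 10.9 CPM. RDN5-1, YNR034W-A and YDR134C have no standard name in the count table and were added after their values were seen.

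PRM6 (YML047C) encodes a pheromone-regulated membrane protein with a role in potassium influx. It stood at 2.07, 6.37 and 5.04 CPM in crz1 and at 1.18, 1.23 and 1.83 CPM in crz1cnb1. The groups did not overlap, but the pairs were uneven (-0.77, -2.29 and -1.42), and the log2 difference was -1.62 ± 0.25 (adjusted p = 0.021). It was the 1 gene called of 30 in the list of pheromone response and a-cell genes, of which 23 had a difference below 0, with a median of -0.155. The pair medians of this list were -0.0264, -0.362 and -0.0706, so most of the shift lay in pair 2. FIG1, which encodes a membrane protein of calcium influx during mating, had -1.69 ± 0.35 (adjusted p = 0.0918), ASG7 -0.59 ± 0.19 (adjusted p = 0.409) and MFA1, an a-factor gene, -0.48 ± 0.15 (adjusted p = 0.392). The other a-factor gene, MFA2, went the other way, with 13165, 14516 and 17157 counts in crz1 and 16077, 15412 and 18809 in crz1cnb1. In the list 7 genes had a difference above 0, the highest at 0.412. For the lower genes, fewer expressing cells and less RNA per cell cannot be told apart in bulk libraries.

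DAN1 (YJR150C), a wall mannoprotein made without oxygen, stood at 10.1, 6.59 and 9.89 CPM in crz1 and at 3.91, 3.46 and 3.91 CPM in crz1cnb1. The groups did not overlap, and the log2 difference was -1.22 ± 0.16 (adjusted p = 0.00731). It was the 1 gene called of 15 tested in the list of DAN, TIR and PAU mannoproteins, whose median was -0.265 with pair medians of -0.152, -0.322 and -0.369. Of the 15, 6 had a difference above 0, the highest at 0.262, and 9 one below 0. The 3 members next in p to DAN1, PAU24, PAU5 and PAU4, had log2 differences of -1.34, -0.63 and -1.25 with adjusted p of 0.0842, 0.268 and 0.392, at mean levels of 0.18 to 3.0 CPM. These genes share reads with near copies, with 52.9%, 24.7% and 62.1% of their 50-base words found elsewhere.

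TSA2 (YDR453C), a cytosolic peroxiredoxin, fell from 25.3, 12.4 and 29.2 CPM to 15.7, 8.22 and 18.3 CPM, a log2 difference of -0.66 ± 0.10 (adjusted p = 0.0202). It was the 1 gene called of 22 in the thioredoxin and oxidant defence list. In that list the mitochondrial peroxiredoxin gene PRX1 had -0.28 (adjusted p = 0.245) and SRX1 had 0.60 (adjusted p = 0.655). GRX1, a glutaredoxin gene of the glutathione metabolism list, in which 0 of 24 genes were called, had -0.35 (adjusted p = 0.349). BNA1 (YJR025C), an enzyme of NAD synthesis from tryptophan, differed by -0.66 ± 0.11 (adjusted p = 0.0436). STF2 (YGR008C), a hydrophilin with a role at the mitochondrial ATP synthase, fell by 0.62 ± 0.08 (adjusted p = 0.00922). IMD2, an enzyme of guanine nucleotide synthesis, differed by -0.38 ± 0.06 (adjusted p = 0.021), with 33.7% of its 50-base words shared. COS12 and COS1, of a family of membrane proteins encoded near chromosome ends, differed by -0.71 ± 0.11 (adjusted p = 0.0202) and -0.50 ± 0.09 (adjusted p = 0.0436), and COS1 shares 71.1% of its words with other genes.

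The counts of the lists closest to calcineurin are given as a description, since at the 0.412% called over all features lists of this size would mostly hold 0 calls. Of 14 known Crz1 targets tested 0 were called, with 8 differences above 0 and a median of 0.052. Of 18 known calcineurin substrates other than Crz1 0 were called, with a median of 0.0299. Of 21 potassium and sodium transport genes 0 were called, 17 had a difference above 0, and the pair medians were even at 0.0836, 0.0832 and 0.0854. With library totals without a scaling factor, 13 of these 21 lay above 0. ENA1, the sodium pump, had a log2 difference of 0.20 ± 0.10 (adjusted p = 0.78), and PMA1, the proton pump of the plasma membrane, 0.20 ± 0.08 (adjusted p = 0.611). Since 88.5% of the 50-base words of ENA1 occur elsewhere in the genome, its reads cannot be fully parted from those of other loci. Of 11 calcium transport genes 0 were called.

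The ribosome and cell cycle lists held 0 called genes. The 137 ribosomal protein genes had a median of 0.0543, with 123 differences above 0, and pair medians of 0.13, 0.00245 and 0.0377, highest in pair 1. The 32 ribosome biogenesis genes had a median of 0.0649, with 31 above 0, and pair medians of 0.0355, 0.0675 and 0.0905. Library totals without a scaling factor moved the median of all features to -0.0347 and left 85 of the 137 ribosomal protein genes above 0 (median 0.0156), 24 of the 32 ribosome biogenesis genes and 25 of the 34 cyclins and M/G1 genes. With the scaling factor, 31 of those 34 lay above 0 with a median of 0.0986 and pair medians of 0.0454, 0.192 and 0.0391, highest in pair 2. The G1 cyclin CLN1 had 0.33 ± 0.07 (adjusted p = 0.0894) and CLN3 0.29 ± 0.09 (adjusted p = 0.311). Hcm1 and its targets, known to respond to calcineurin in yeast, had 16 of 18 above 0 but a median of 0.179 in pair 2 against 0.0331 and -0.0126 in the others. Library totals without a scaling factor left 13 of these 18 above 0. The 32 iron regulon genes, 0 of them called, had pair medians of -0.238, 0.332 and 0.163 and so differed in sign between pairs.

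**Figure D4:**
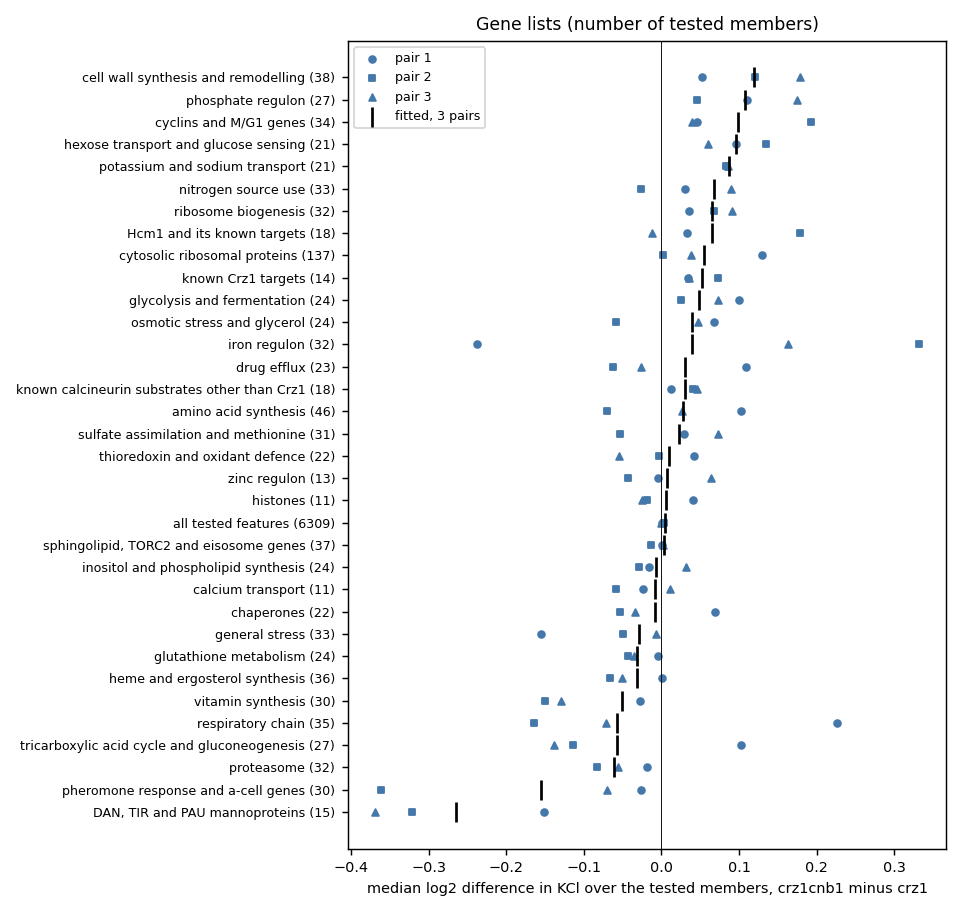
Median log2 difference in KCl, crz1cnb1 minus crz1, over the tested members of each gene list, for each pair (symbols) and for the fitted values (bars). The cell wall list lies highest at 0.119 and the DAN, TIR and PAU list lowest at -0.265, while the iron regulon and the respiratory chain spread widest over the pairs.

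The strain difference in KCl was then set beside that at 0 h. The log2 differences at 0 h come from libraries that the KCl contrast does not use. Both sets of calls share 1 fit and its estimates of spread, so calls at both times are not separate evidence. At 0 h 21 features were called (0.333%), and 12 were called at both times, which is 46.2% of the KCl calls and 57.1% of the 0 h calls. These were ADR1, PHO84, ZRT1, PNS1, SPL2, PHO89, PHO12 and VTC3 among the higher and CNB1, RDN5-1, COS12 and PRM6 among the lower, each with the same sign. All 26 features called in KCl had the same sign at 0 h. The share of all tested features with the same sign at both times was not counted. Over the 6308 tested features other than CNB1, the log2 differences in KCl and at 0 h correlated with Pearson's r = 0.31 and Spearman's rho = 0.124, across genes that are not independent.

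The test of the difference between the strain differences called 0 features (0%) in edgeR, and 276 features, or 4.37%, had an unadjusted p under 0.05. The smallest adjusted p was 0.723. DESeq2, limma voom and limma trend on TPM also called 0. Thus no gene was shown to differ between strains in KCl otherwise than at 0 h.

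Several values at both times show the range. PHO84 stood at 240, 179 and 352 CPM in crz1 at 0 h and at 605, 448 and 929 CPM in crz1cnb1, a log2 difference of 1.35 ± 0.14 (adjusted p = 0.00304) beside 1.62 in KCl. PHO89 differed by 1.61 ± 0.13 at 0 h and by 1.01 in KCl. HXT5 differed by 0.63 ± 0.26 (adjusted p = 0.43) at 0 h and by 1.97 in KCl, a gap of 1.34 ± 0.33 (adjusted p = 0.85 in the test of the gap). YNR034W-A differed by -0.17 ± 0.14 at 0 h and by -1.13 in KCl, with a gap of -0.96 ± 0.18 (adjusted p = 0.723). It stood at only 2.12 to 3.85 CPM at 0 h in either strain.

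Of the 9 features called at 0 h alone, all had the same sign in KCl, again without the share over all tested features. PHO5 differed by 0.81 ± 0.09 (adjusted p = 0.00364) at 0 h and by 0.14 in KCl, a gap of -0.67 ± 0.13 (adjusted p = 0.723). HSP12, a small membrane-stabilising stress protein, differed by 0.81 at 0 h and by 0.23 in KCl, and YGP1, a secreted glycoprotein made on nutrient limitation, by 0.66 and 0.29. SUR7, an eisosome protein, differed by 0.56 and 0.38, and STE3, the a-factor receptor gene of alpha cells, by -1.01 and -0.62. Among the 8 named features with the smallest p for the gap were also PNC1, SLM6, AAP1 and MAE1. SLM6, which overlaps REI1, had log2 differences of 0.50 in KCl and -0.52 at 0 h, with an adjusted p of 0.723 for the gap.

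**Figure D5:**
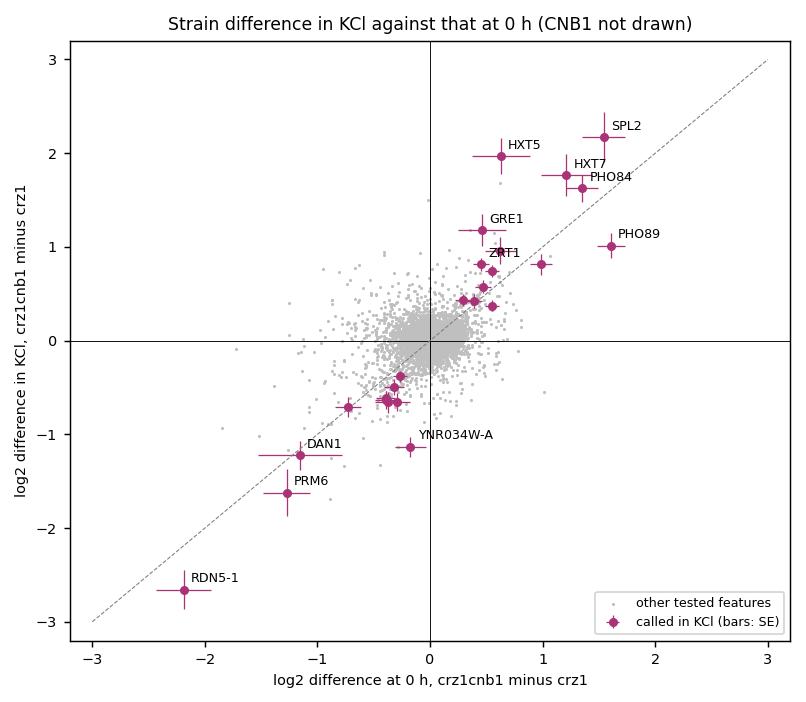
Log2 difference, crz1cnb1 minus crz1, in KCl (vertical) against that at 0 h (horizontal) for the tested features other than CNB1, with the features called in KCl in colour with SE bars and the line of equal differences dashed. The called features lie in the quadrants of equal sign, with HXT5 and YNR034W-A farthest from the dashed line among those labelled.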

How the data were processed

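Poly(A) RNA libraries of 12 samples (4 groups of 3) were analysed. Per the file headers, the deposited values are counts for 7126 features and, in another table, TPM. FeatureCounts, DESeq2 and the build R64 come from the submitters' processing notes. Aligner, strand setting and treatment of multiply matching reads were not given in the sources used here. Counts held 207 features at 0 throughout.

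The counts were tested with edgeR 4.0.16 (R 4.3.3): filterByExpr by group (6309 features kept, at least 99.99% of counts), TMM scaling, robust glmQLFit and glmQLFTest over all 12 libraries, with 1 mean per group and the replicate number as a block nested in treatment. The comparison was defined as paired by replicate number, and the block was chosen with an earlier result on these data known. Deviations from group means correlated at 0.638, 0.817 and 0.827 for KCl libraries of the same number (0 h: 0.542 to 0.79). For different numbers they correlated at -0.732 to -0.0557 (0 h: -0.61 to 0.231). Deviations sum to 0 within a group of 3, so positive values for the same number push those for different numbers below 0. P-values were adjusted by Benjamini-Hochberg at 0.05 over all features. CPM are TMM-scaled, errors are SE, and 95% intervals use the t distribution with the test's degrees of freedom (median 10.1). Library pairs within groups differed by 73.4 to 235.8 times the counting noise, so none was a copy. A count of 0 allows up to 3 counts, or 0.12 to 0.177 CPM, for counting error only.

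Named were up to 12 called features with a standard name per direction, the genotype checks, members of gene lists with the smallest p (up to 4 a list) and the 8 smallest p for the gap between KCl and 0 h. PHO11, VTC4 and GIT1 were named after their values were seen. Members, lists and rules were chosen with earlier results of these data known.

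On simulated counts for the KCl contrast over 6309 features, 14, 47, 50 and 50 of 50 genes changed 1.25-, 1.5-, 2- and 4-fold were recovered with 6 false calls. The changed genes were drawn only from features above a set mean level, which called genes such as SPL2 and HXT7 do not reach. The counts were drawn from the fitted paired model, so the simulation could not check the block itself. Alternatives were no block, a common block, the 6 KCl libraries alone, DESeq2 1.42.0 and its size factors, library totals, other filters, limma 3.58.1 (voom, and trend on log2(TPM + 1) or log2(TPM + 0.1)), glmTreat and leaving out libraries.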

Additional observations from a re-analysis of the deposited data

How the results depend on the processing

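In the main paired fit 26 features were called in KCl (14 higher, 12 lower) and 21 at 0 h. Without the replicate block 3 were called in KCl (1 higher, 2 lower) and 1 at 0 h, with a block common to both treatments 4 (2 and 2) and 5, and with the 6 KCl libraries alone 38 (23 higher) with the block and 2 (0 higher, 2 lower) without it. DESeq2 called 42 (28 higher) and 61, a minimum mean of 10 CPM 14 (8 and 6) and 12, limma trend 11 (5 and 6) with a pseudocount of 1 TPM and 10 (5 and 5) with 0.1 TPM, and glmTreat at 1.5-fold 6 (3 and 3) and 4. DESeq2 size factors, library totals, no filter and limma voom gave 24 to 28. Leaving out 1 library with the block gave 9 to 48 calls in KCl (5 to 29 higher, 4 to 19 lower) and 15 to 23 at 0 h, 9 without replicate 3 of either strain in KCl, 12 without replicate 1 or 2, and 48 without replicate 2 of either strain at 0 h. Without the block it gave 1 to 4 in KCl (0 to 2 higher, 1 to 3 lower) and 1 at 0 h. The cause was not tested.

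Over 797 combinations of a called feature and an alternative, 421 kept the call, 376 lost it and 0 changed sign. CNB1 was called in all 31 alternatives. Among genes not called, leaving out 1 library and the block together moved CNA1 between -0.083 and 0.18, CWP1 between -0.27 and 1.07, PNC1 between -0.62 and 0.041, YGP1 between -0.12 and 0.73 and ENA1 between -0.036 and 0.46. With the block kept, CNA1 lay between -0.055 and 0.10 and the other 4 kept their sign. CNA1 was also at -0.00208 for the 6 KCl libraries alone without the block, at -0.025 with library totals and at -0.025 and -0.026 on the TPM scale with a pseudocount of 1 and 0.1.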

Other observations

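Position along the chromosome was looked at after the called genes were seen. Of the 14 higher features, 4 lay within 30 kb of a chromosome end (PHO84, ZRT1, PHO89 and PHO12), as did 4 of the 11 lower features with a position (COS12, HXK1, IMD2 and COS1), against 5.4% of the 5726 tested features with a position. The 309 tested features within 30 kb of an end had a median log2 difference of -0.0464 in KCl and -0.0392 at 0 h, against 0.00449 in KCl for those farther in, and 62.5% of them lay below 0 in KCl against 48.1%. No test was made of this pattern.

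Of 30 vitamin synthesis genes tested BNA1 was called, and 9 had a difference above 0 and 21 below, with a median of -0.0505. The members next in p to BNA1 were THI12, THI11 and THI5, which did not pass the test. They encode near-identical enzymes of thiamine precursor synthesis and had log2 differences of -0.80, -0.42 and -0.85 in KCl with adjusted p of 0.0896, 0.225 and 0.336. From 70.6% to 85% of their 50-base words occur elsewhere, so the genes cannot be read apart. MEP2, the high-affinity ammonium transporter, had 0.31 ± 0.08 (adjusted p = 0.192), and DDR48, a stress protein, 0.38 ± 0.09 (adjusted p = 0.154).

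The Crz1 binding element, searched in the forms GNGGCGCA and GNGGCTCA on both strands, was found upstream of PNS1 among the 13 higher genes that could be read and of TSA2 among the 11 lower, and in 3.74% of all promoters. The Hcm1 motif TAAACAA was found in 4 of the 13 and 2 of the 11, and in 18.6% of all promoters.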
